A study of Rattus norvegicus with 8 samples.

Results

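The genes of cholesterol and fatty acid synthesis were followed in rat chondrocytes, the cells of cartilage, treated with the inflammatory cytokine TNFα (tumour necrosis factor alpha), with U0126, or with both. The set was chosen by name: 41 symbols of sterol enzymes, of the regulators that control them, of the sterol carrier Stard4 and of fatty acid enzymes. Of these, 37 genes had a probe set of their own on the array, out of 14217 such genes in all. Hmgcs1 had none and is not analysed here, and Sc4mol, Sc5dl and Scd1 are older names of Msmo1, Sc5d and Scd. The 37 genes fell into 17 sterol enzymes, 6 regulators, with Stard4 counted among them, and 14 fatty acid genes. They were read by 62 probe sets, and 20 genes had more than 1, in which case the probe set with the highest mean was used. The other probe sets are given below for some of these genes only.

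Chondrocytes came from the femoral condyles of Sprague Dawley rats 1 day after birth and were grown in monolayer. Cells received either DMSO, the solvent, or U0126, which inhibits the kinases MEK1/2 and with them ERK signalling, for 30 min. They then received either the BSA vehicle or TNFα at 30 ng/ml for 24 h. The 4 groups were therefore DMSO, U0126, TNFα and U0126+TNFα, each with 2 arrays that the labels call biological replicates and that came from 2 independent experiments, 8 Affymetrix arrays in total. The number of arrays limits the precision of every value below.

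Cholesterol is built from acetyl-CoA through mevalonate, isoprenoid units, squalene and lanosterol. The genes of this route are switched on by SREBP-2, encoded by Srebf2, and those of fatty acid synthesis largely by SREBP-1, encoded by Srebf1. Both factors are held in the endoplasmic reticulum by SCAP and the INSIG proteins when sterols are plentiful, and are cut loose when sterols run low. SREBP-1 also answers to oxysterols through the LXR receptors. In cartilage, cholesterol is needed for membranes and for hedgehog signalling in the growth plate.

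The cells carried the markers of chondrocytes, and the 2 experiments differed in the markers of several cell types within each treatment, most in those of adipocytes. All 12 chondrocyte markers measured lay above the lower quartile of all probe sets (142.3), and their summed intensity ran from 113760 to 233800 over the 8 arrays. Experiment 2 had 0.658 to 0.693 of the sum of experiment 1, depending on the treatment. The 7 measured adipocyte markers summed to between 2432 and 3592 in experiment 1 and to between 17939 and 24396 in experiment 2, which was 5.98- to 7.76-fold higher. Fabp4, the fatty acid carrier of fat cells, was on average 8.92-fold higher in experiment 2, Plin1, which coats lipid droplets, 8.37-fold, Cfd 7.69-fold, Adipoq 5.13-fold and Pparg 4.95-fold, whereas Lep lay at 0.881 of its value in experiment 1. The 7 markers of fibroblasts and synovial lining summed to between 93452 and 97366 in experiment 1 and to between 118800 and 127120 in experiment 2, 1.25- to 1.32-fold higher, and the 4 of endothelium, led by Tek, were 1.45- to 1.80-fold higher at sums of 495 to 917. None of the adipocyte markers, and none of those of fibroblasts and synovial lining, was below the lower quartile on every array. That bar therefore does not set the chondrocyte markers apart. With TNFα in experiment 2 the fibroblast and synovial lining sum, 121720, exceeded the chondrocyte sum of 113760, on that array only. Of the other marker lists, Ptprc and Cd163 of leukocytes, Pecam1 and Vwf of endothelium and Myod1, Ckm and Acta1 of muscle were below it on every array. The agents acted: the TNFα targets Nfkbia, Tnfaip3, Ccl2 and Nfkb2 rose with TNFα, and the ERK targets Egr1, Dusp6 and Etv5 fell with U0126 (limma, both agents averaged as defined below). The other ERK targets on this list of 9 genes, Spry4 and Fosl1, did not pass with U0126. With TNFα, 2 of the 9 fell.

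Scd and Insig1 were the members that differed most between the experiments. Scd, a stearoyl-CoA desaturase that makes monounsaturated fatty acids, measured 1952 in DMSO, 2362 in U0126, 1458 in TNFα and 2069 in U0126+TNFα in experiment 1, against 7352, 10463, 7077 and 7453 in experiment 2. The lowest value of experiment 2 was far above the highest of experiment 1, and the ratio was 3.60 to 4.85. Insig1 was 1.59- to 2.34-fold higher in experiment 2. These 2 genes, 5.41% of the members, passed 1.45-fold, the study's fold threshold, in all 4 treatments, against 3.09% of all probe sets. Tm7sf2, a sterol reductase, had an average ratio of 1.71, Acss2 of 1.65 and Fasn of 1.42. Of the 37 members, 23 were higher in experiment 2 in every treatment, where 22.3% of all probe sets were. Me1, Lss, Fads2 and Insig2 were lower in every treatment, which was not counted over all probe sets. The adipocyte marker sum moved with experiment in the same arrays, and its part in these differences was not tested. The paper describes its cultures as essentially pure chondrocytes, and cell composition was not measured here. On arrays of whole cultures, a change in the number of cells of a type and in RNA per cell cannot be told apart.

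**Figure D1:**
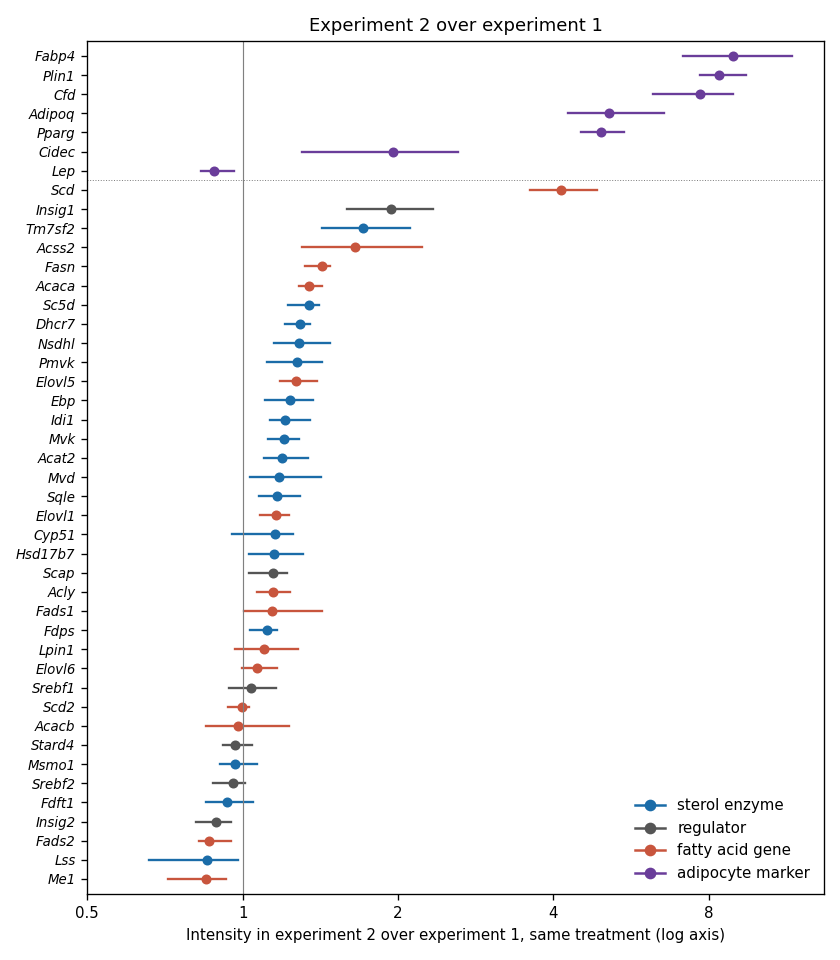
Intensity of each member gene and of 7 adipocyte markers in experiment 2 divided by that in experiment 1 of the same treatment, on a log axis. Points are geometric means over the 4 treatments and lines run from the lowest to the highest ratio. Scd stands apart from the other members at 3.60 to 4.85, below most adipocyte markers and above all other members.

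With TNFα, 4 of 17 sterol enzymes rose and 0 fell, and 2 of 14 fatty acid genes fell and 0 rose, all by small amounts and in the averaged effect defined next. The comparison was made without U0126 (TNFα against DMSO), with it (U0126+TNFα against U0126), and as the mean of both, which used all 8 arrays and is called the averaged effect of TNFα. Each was tested with limma with the experiment as a block, and p-values were adjusted over all 31042 probe sets. In the averaged effect 8 of 37 members passed, 21.6%, beside 7.92% of all probe sets and 9.71% of genes taken at 1 probe set each. Acat2, Lss, Msmo1 and Dhcr7, all sterol enzymes, rose. Srebf1, Stard4, Fasn and Elovl6 fell. At its brightest probe set, no member passed 1.45-fold in both experiments in any of the 5 pairs of groups compared. Of all probe sets, 2.02% did so for TNFα against DMSO, 0.29% for U0126 against DMSO and 1.21% for U0126+TNFα against U0126. The share was 0.763% for U0126+TNFα against TNFα and 1.67% for U0126+TNFα against DMSO. A dimmer probe set of Scd2 passed in U0126+TNFα against TNFα (1.52- and 1.80-fold) and against DMSO (1.48- and 2.46-fold). In TNFα against DMSO alone 3 of 37 passed, 8.11%, beside 5.19% of all probe sets: Acat2 and Msmo1 rose and Srebf1 fell. In U0126+TNFα against U0126, 0 passed, beside 1.24% of all probe sets, and 8 had an unadjusted p below 0.05 (12.5% of all probe sets), of which 7 were lower with TNFα. The comparisons share arrays, so their values are set side by side and are not independent.

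These calls depended on single arrays. Without the replicate block 0 members passed in either test. The averaged effect gave 2 calls without the DMSO array of experiment 1, 3 without that of experiment 2, 2 without the TNFα array of experiment 1, 7 without that of experiment 2, 1 without the U0126 array of experiment 1, 2 without that of experiment 2, and 1 without either U0126+TNFα array. TNFα against DMSO gave 1 call without the TNFα array of experiment 2 or without either U0126 array, and 0 without any 1 of the others. Over all these alternatives, none of the called genes changed direction. Over all probe sets, leaving out 1 array also lowered the number of calls, from 2458 to between 844 and 2388 in the averaged effect.

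**Figure D2:**
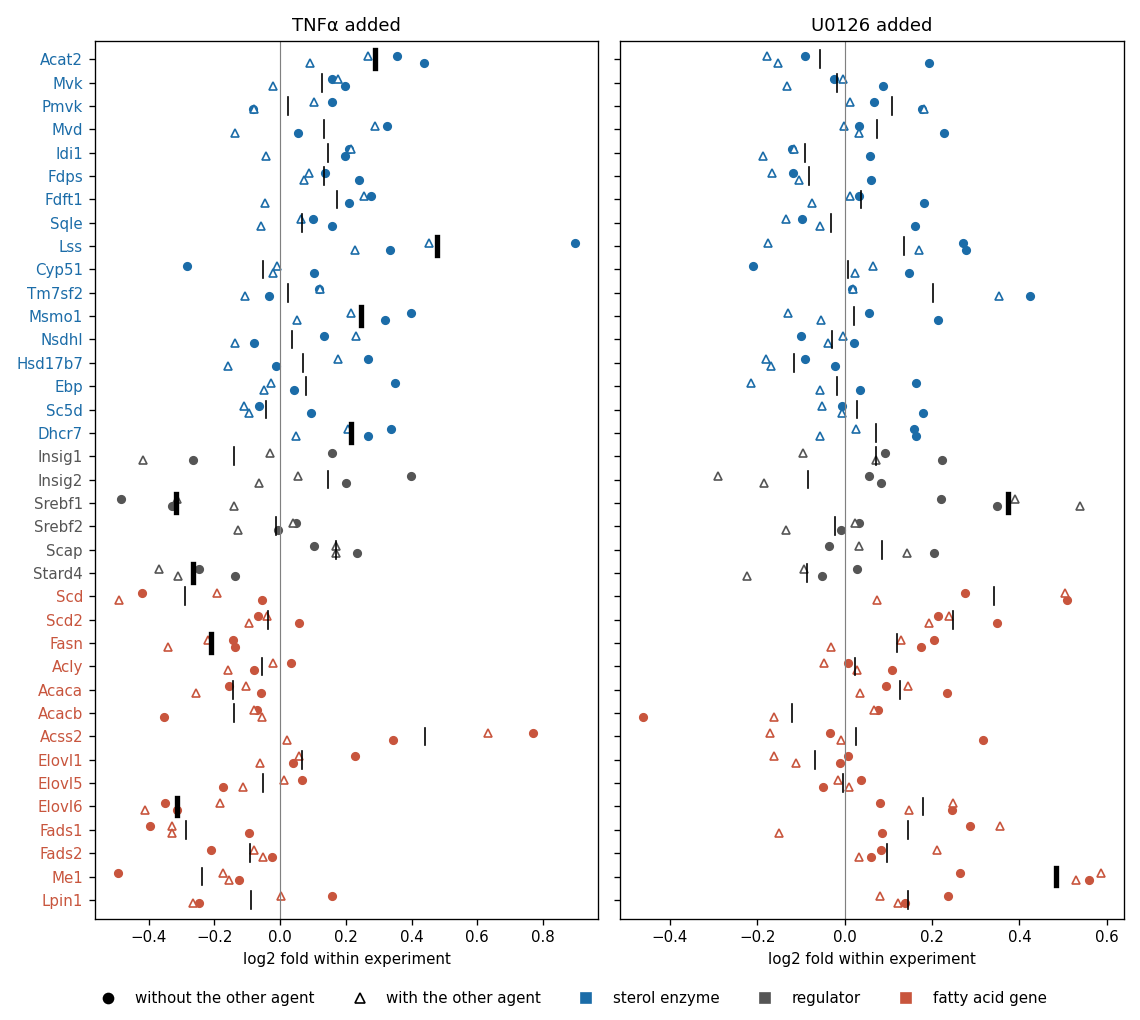
log2 fold within each experiment for the 37 members, for TNFα added (left) and U0126 added (right). Filled circles are pairs without the other agent, open triangles pairs with it, each once per experiment (experiment 1 slightly above, experiment 2 slightly below), and the black bar is the mean of all 4 pairs, thick where limma passed. For TNFα most sterol enzymes lie to the right of 0 and most fatty acid genes to the left, and Acss2 is the fatty acid gene farthest to the right.

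Among the sterol enzymes, 16 of 17 had a log2 fold above 0 in TNFα against DMSO, with a median of 0.19, where the median of all probe sets was -0.02. The median was 0.21 in experiment 1 and 0.16 in experiment 2. With U0126 present, 14 of 17 were above 0, the median was 0.08, and it was 0.18 in experiment 1 and -0.05 in experiment 2. Higher in all 4 within-experiment pairs were 5 of 17, Acat2, Fdps, Lss, Msmo1 and Dhcr7, or 29.4%. With Scap and Acss2 they made 7 of 37 members, or 18.9%. Of all probe sets 14.9% were higher in all 4 pairs, and of genes at 1 probe set each 17.0%.

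Acat2, the cytosolic thiolase that opens the route by joining acetyl-CoA units, measured 2234 and 2453 in DMSO (experiment 1, then 2, here and below), 2096 and 2804.5 in U0126, 2856 and 3322 in TNFα, and 2526 and 2987 in U0126+TNFα. Both TNFα arrays were above all 4 arrays without TNFα, while the U0126+TNFα arrays overlapped them. Acat2 rose by 0.29 ± 0.06 on the log2 scale in the averaged effect (standard error, adjusted p = 0.029 by limma), 1.24-fold in experiment 1 and 1.20-fold in experiment 2.

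Lss, lanosterol synthase, which closes squalene epoxide into the first sterol, measured 2219 and 2162 in DMSO, 2678 and 2621 in U0126, 4137 and 2728 in TNFα, and 3664 and 3071 in U0126+TNFα. All 4 arrays with TNFα were above all 4 without it. It rose by 0.48 ± 0.10 (adjusted p = 0.032), 1.60-fold in experiment 1 and 1.22-fold in experiment 2, and its other probe set rose by 0.43 (adjusted p = 0.016). In TNFα against DMSO the difference of 0.62 ± 0.14 had an adjusted p of 0.052.

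Msmo1, the methylsterol monooxygenase that strips methyl groups from lanosterol, measured 4517 and 4320 in DMSO, 4697 and 5006 in U0126, 5959.9 and 5386 in TNFα, and 5449 and 5192 in U0126+TNFα. Again no array with TNFα overlapped those without. Msmo1 rose by 0.25 ± 0.05 in the averaged effect (adjusted p = 0.037), and by 0.36 ± 0.07 in TNFα against DMSO (adjusted p = 0.044).

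Dhcr7, the reductase that completes cholesterol, measured 1167 and 1568 in DMSO, 1302 and 1756 in U0126, 1476 and 1888 in TNFα, and 1503 and 1816 in U0126+TNFα. The groups overlapped because experiment 2 was higher throughout, and within each experiment every TNFα array was above its partner. Dhcr7 rose by 0.22 ± 0.05 (adjusted p = 0.042).

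Sqle, squalene epoxidase, a rate-setting step, measured 2518 and 2714 in DMSO, 2352 and 3034 in U0126, 2699 and 3029 in TNFα, and 2459 and 2913 in U0126+TNFα. Its averaged difference of 0.07 ± 0.06 did not pass (adjusted p = 0.48). The remaining 12 sterol enzymes, Mvk, Pmvk, Mvd, Idi1, Fdps, Fdft1, Cyp51, Tm7sf2, Nsdhl, Hsd17b7, Ebp and Sc5d, did not pass either, with averaged log2 differences from -0.05 for Cyp51 to 0.17 for Fdft1. The probe set of Idi1 with the lower mean rose, by 0.23 (adjusted p = 0.020), while its brighter one had 0.14 (adjusted p = 0.16). The brighter and dimmer probe sets of Fdft1 had 0.17 and -0.01, so that gene's value rests on the choice of probe set.

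**Figure D3:**
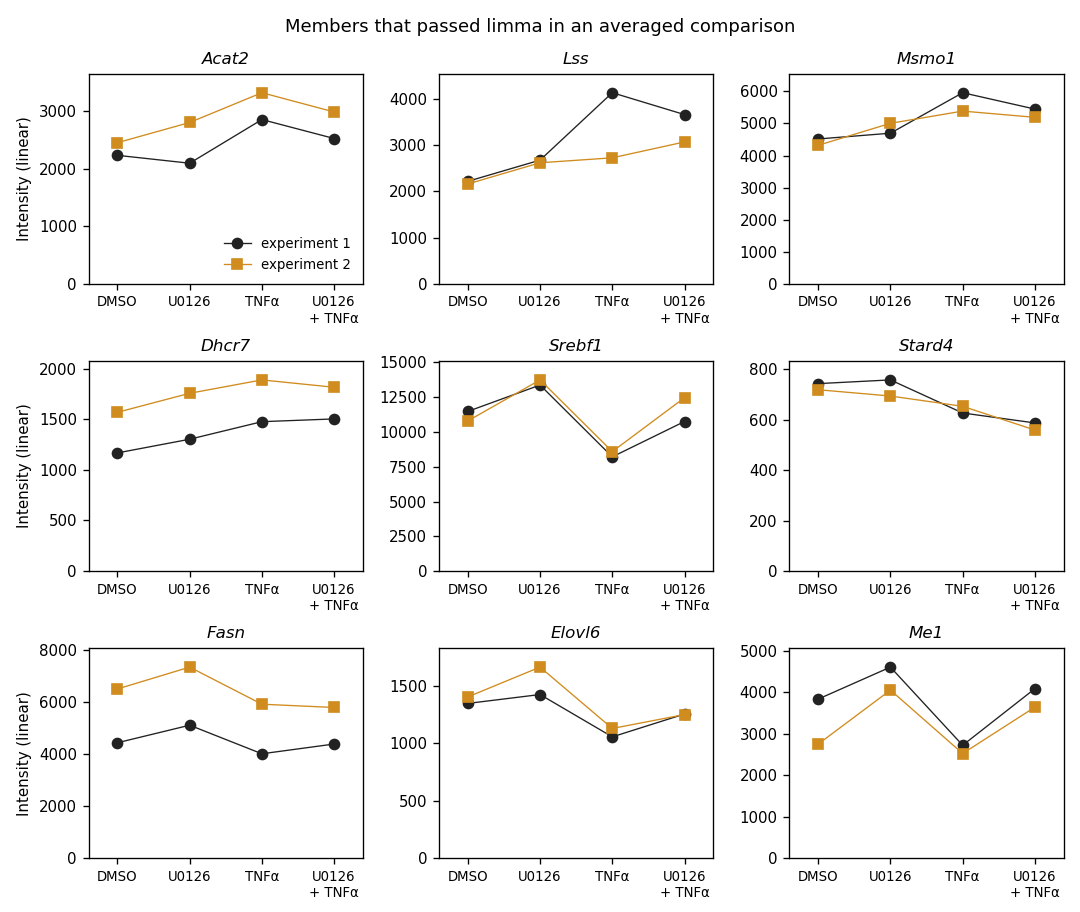
Intensity of the 9 members that passed limma in the averaged effect of TNFα or of U0126, on linear axes from 0. Circles are experiment 1, squares experiment 2, and the thin lines only tie the 4 arrays of an experiment together. The TNFα arrays of Srebf1 lie below all other arrays, those of Lss and Msmo1 lie above the arrays without TNFα, and experiment 2 is higher throughout for Dhcr7 and Fasn.

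Promoter sequences were available for 30 of the 37 members, from RefSeq (GRCr8). Those of the 4 sterol enzymes that rose, and of Srebf1 and Me1, the genes that passed for U0126, are shown as the 250 bases before each start, 5′ to 3′ on the gene's strand. Capitals mark CCAAT (the NF-Y box) and GGGCGG (the Sp1 box) on either strand, and in Me1 also TGACNNNGC, the core of the antioxidant response element. Factors of both boxes are known partners of SREBPs. Srebf1 has 2 starts in the table.
Acat2 (chr1:50100590-50100839, plus strand): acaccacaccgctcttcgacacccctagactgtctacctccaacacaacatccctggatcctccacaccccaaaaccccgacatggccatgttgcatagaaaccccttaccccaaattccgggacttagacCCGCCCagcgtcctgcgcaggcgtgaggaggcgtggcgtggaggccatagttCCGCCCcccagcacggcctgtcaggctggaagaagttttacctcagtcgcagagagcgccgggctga
Lss (chr20:12118231-12118480, minus strand): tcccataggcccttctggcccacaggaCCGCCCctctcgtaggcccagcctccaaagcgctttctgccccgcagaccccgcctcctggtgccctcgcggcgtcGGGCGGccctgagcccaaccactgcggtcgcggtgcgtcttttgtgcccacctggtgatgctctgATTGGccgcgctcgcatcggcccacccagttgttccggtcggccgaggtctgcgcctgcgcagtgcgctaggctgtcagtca
Msmo1 (chr16:29746863-29747112, plus strand): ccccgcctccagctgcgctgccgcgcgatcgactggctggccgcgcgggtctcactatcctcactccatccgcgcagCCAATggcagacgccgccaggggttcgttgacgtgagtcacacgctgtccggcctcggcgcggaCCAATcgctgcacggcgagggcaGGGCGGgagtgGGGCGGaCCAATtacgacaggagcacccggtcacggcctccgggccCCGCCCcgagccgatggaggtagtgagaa
Dhcr7 (chr1:208444184-208444433, plus strand): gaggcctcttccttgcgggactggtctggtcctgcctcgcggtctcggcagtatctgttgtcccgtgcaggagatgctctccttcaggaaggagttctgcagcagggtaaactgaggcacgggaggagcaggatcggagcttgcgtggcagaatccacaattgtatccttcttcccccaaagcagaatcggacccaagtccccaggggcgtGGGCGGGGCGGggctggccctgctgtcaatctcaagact
Srebf1, start 1 (chr10:45529165-45529414, minus strand): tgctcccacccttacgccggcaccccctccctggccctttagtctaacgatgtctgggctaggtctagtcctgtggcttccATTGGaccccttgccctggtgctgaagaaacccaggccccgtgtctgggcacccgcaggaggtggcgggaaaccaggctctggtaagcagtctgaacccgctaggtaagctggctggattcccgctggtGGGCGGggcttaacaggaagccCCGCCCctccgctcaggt
Srebf1, start 2 (chr10:45519011-45519260, minus strand): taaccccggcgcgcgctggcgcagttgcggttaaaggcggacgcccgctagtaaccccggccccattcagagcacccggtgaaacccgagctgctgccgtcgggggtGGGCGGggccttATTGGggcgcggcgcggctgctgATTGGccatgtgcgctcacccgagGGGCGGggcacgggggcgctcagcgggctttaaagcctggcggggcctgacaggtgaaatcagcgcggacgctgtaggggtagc
Me1 (chr8:96540245-96540494, minus strand): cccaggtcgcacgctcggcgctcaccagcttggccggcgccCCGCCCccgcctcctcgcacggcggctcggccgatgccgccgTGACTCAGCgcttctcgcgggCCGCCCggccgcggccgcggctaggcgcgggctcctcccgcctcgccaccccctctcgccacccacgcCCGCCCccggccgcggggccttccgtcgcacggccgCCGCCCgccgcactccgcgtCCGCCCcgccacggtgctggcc

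In full windows of 300 bases, 50 of them after the start, CCAAT was in 22 of the 30 members, 73.3%, where 37.5% of all 33469 windows in the table and 38.6% of 11700 genes on the array held it. GGGCGG was in 21 of 30, 70.0%, beside 33.1% of windows and 58.6% of array genes. The E-box CACGTG was in 4, Elovl5, Insig1, Sc5d and Scap (13.3%, beside 6.42% of windows and 9.38% of array genes). Sterol regulatory element 1 in its full form was in 0.125% of windows and 0.00855% of array genes. Its looser core TCACNCCAC, which holds part of the full form, was in 1.12% and 1.2%. The DR4 motif of LXR was in 0.00598% and 0%. None of these was found in the members' windows, and at such low shares that absence could not set the members apart from other genes. TGACNNNGC, added after the values were seen, was in 7 members, 23.3%, beside 12.1% of windows and 15.2% of array genes. In the bases shown, Msmo1 has 3 CCAAT and 3 GGGCGG, and Acat2 and Dhcr7 have 2 GGGCGG each and no CCAAT.

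The regulators split. Srebf1 and the sterol carrier Stard4, which is counted in this group, fell with TNFα. Srebf2, Scap, Insig1 and Insig2 did not pass at their brightest probe sets. Srebf1 measured 11480 and 10796 in DMSO, 13379 and 13747 in U0126, 8212 and 8590.1 in TNFα, and 10755 and 12468 in U0126+TNFα. Both TNFα arrays were the lowest of the 8, and the arrays with both agents lay close to or above DMSO. Srebf1 fell by 0.41 ± 0.08 on the log2 scale in TNFα against DMSO (adjusted p = 0.041), to 0.715 of DMSO in experiment 1 and 0.796 in experiment 2, and by 0.32 ± 0.06 in the averaged effect (adjusted p = 0.022). With U0126 present, the difference of -0.23 ± 0.08 did not pass (adjusted p = 0.32). Its dimmer probe set had -0.27 in the averaged effect and did not pass (adjusted p = 0.16).

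Stard4, a cytosolic carrier of sterols and a target of SREBP-2, measured 743 and 719 in DMSO, 758 and 694 in U0126, 627 and 653 in TNFα, and 587 and 559 in U0126+TNFα. All arrays with TNFα were below all without. It fell by 0.27 ± 0.05 (adjusted p = 0.022), and it was the only member that passed in U0126+TNFα against DMSO, where it fell by 0.35 ± 0.07 (adjusted p = 0.048), 2.70% of members beside 3.12% of all probe sets. That call was lost without either DMSO, either U0126 or either U0126+TNFα array, each of which gave 0 calls, and stood without either TNFα array, with 2 calls (Lss was the other). The 2 dimmer probe sets of Stard4 had averaged differences of -0.07 and -0.11 and did not pass.

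Srebf2 measured 2869 and 2903 in DMSO, 2934 and 2885 in U0126, 2966 and 2892 in TNFα, and 3016 and 2637 in U0126+TNFα, an averaged difference of -0.01 ± 0.05 (adjusted p = 0.91). Scap, the escort of SREBPs, measured 2126 and 2191 in DMSO, 2073 and 2526 in U0126, 2281.5 and 2578 in TNFα, and 2333 and 2844 in U0126+TNFα. Scap was higher with TNFα in all 4 pairs, by 0.17 ± 0.06, without passing (adjusted p = 0.12). Insig1 measured 3172 and 6776 in DMSO, 3379 and 7908 in U0126, 3536 and 5637 in TNFα, and 3309 and 5919.9 in U0126+TNFα. The experiments went apart: in TNFα against DMSO the ratio was 1.11 in experiment 1 and 0.832 in experiment 2. Insig2 measured 1087 and 1011 in DMSO, 1129 and 1071 in U0126, 1432 and 1162 in TNFα, and 1172 and 1023 in U0126+TNFα. Its 2 TNFα arrays stood above its DMSO arrays, by 0.30 ± 0.07 (adjusted p = 0.069), and the dimmer probe set rose in that comparison by 0.50 (adjusted p = 0.041). In the averaged effect the brighter probe set of Insig2 had 0.15 (adjusted p = 0.14), and the dimmer one rose by 0.33 (adjusted p = 0.039).

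Among the fatty acid genes, 12 of 14 had an averaged TNFα effect below 0, with a median of -0.12 (-0.10 in experiment 1 and -0.15 in experiment 2), where the median of all probe sets was -0.02. At the brightest probe set of each gene, 8 of 14 were lower in all 4 pairs, or 57.1%: Scd, Fasn, Acaca, Acacb, Elovl6, Fads1, Fads2 and Me1. With Srebf1 and Stard4 of the regulator group they made 10 of 37 members, 27.0%, beside 18.2% of all probe sets.

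Elovl6, which elongates palmitate to stearate and is a target of SREBP-1, measured 1345 and 1401 in DMSO, 1422 and 1660.1 in U0126, 1054 and 1127 in TNFα, and 1253 and 1248 in U0126+TNFα. All 4 arrays with TNFα were below all 4 without. It fell by 0.31 ± 0.05 in the averaged effect (adjusted p = 0.015), and its dimmer probe set fell by 0.39 (adjusted p = 0.0061).

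Fasn, fatty acid synthase, measured 4443 and 6513 in DMSO, 5119 and 7354.5 in U0126, 4019 and 5927 in TNFα, and 4395 and 5801 in U0126+TNFα. Experiment 2 was higher in every treatment, and within each experiment the arrays with TNFα were below their partners. Fasn fell by 0.21 ± 0.05 (adjusted p = 0.044), and its other probe set fell by 0.29 (adjusted p = 0.018).

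Scd, whose arrays are given above, had an averaged difference of -0.29 ± 0.08 (adjusted p = 0.072), 0.809 of its partner in experiment 1 and 0.828 in experiment 2. Acaca, the acetyl-CoA carboxylase that commits carbon to fatty acids, measured 2239 and 2902.5 in DMSO, 2389.5 and 3412 in U0126, 2011 and 2788 in TNFα, and 2223.5 and 2856 in U0126+TNFα. At its brighter probe set it was lower with TNFα in every pair, by -0.14 ± 0.05, without passing (adjusted p = 0.12). The dimmer probe set of Acaca had 0.05 (adjusted p = 0.66), 0.951 of its partner in experiment 1 and 1.13 in experiment 2. Acly, ATP citrate lyase, which supplies cytosolic acetyl-CoA, measured 5778 and 6659.8 in DMSO, 5806 and 7177 in U0126, 5916 and 6303.5 in TNFα, and 5723 and 6429.6 in U0126+TNFα, an averaged difference of -0.06 ± 0.05 (adjusted p = 0.51). The other 9 fatty acid genes, Scd2, Acacb, Acss2, Elovl1, Elovl5, Fads1, Fads2, Me1 and Lpin1, did not pass, with averaged differences from -0.29 for Fads1 to 0.44 for Acss2. Acacb had a mean intensity of only 69.7, below the lower quartile, and the files give no detection call.

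Acss2, the cytosolic acetyl-CoA synthetase, and Elovl1 were the 2 fatty acid genes with an averaged difference above 0, and that of Elovl1 was 0.07 ± 0.05 (adjusted p = 0.45). Acss2 measured 1256 and 2198 in DMSO, 1227 and 2737 in U0126, 2143 and 2789 in TNFα, and 1904 and 2775 in U0126+TNFα. It was higher with TNFα in all 4 pairs, 1.63-fold in experiment 1 and 1.13-fold in experiment 2, and the averaged difference of 0.44 ± 0.12 did not pass (adjusted p = 0.073).

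The adipocyte markers also moved with TNFα. Of 7 measured, 3 fell in the averaged effect (Pparg by 0.63, Fabp4 by 0.48 and Plin1 by 0.45) and 0 rose, where 3.36% of all probe sets fell. Their sum lay at 3592 and 23308 in DMSO, 3208 and 19175 in TNFα, 3145.5 and 24396 in U0126, and 2432 and 17939 in U0126+TNFα. None was at 0, and the lowest, Lep, ran from 137 to 193.5. Their part in the lower values of Srebf1, Elovl6, Fasn and the other fatty acid genes was not tested. Elovl6 and Fasn lay at 0.831 and 0.881 of their partners in experiment 1, and at 0.778 and 0.847 in experiment 2. The adipocyte sum was also lower with TNFα in both experiments, with and without U0126. Of 12 chondrocyte markers, 7 fell with TNFα and 0 rose, beside the same 3.36%.

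With U0126, the regulator Srebf1 and 1 of 14 fatty acid genes, Me1, rose, and 0 of 17 sterol enzymes passed. Averaged over cells with and without TNFα, 2 of 37 members passed, 5.41%, beside 0.86% of all probe sets and 1.16% of genes at 1 probe set each, and both rose: Srebf1 and Me1. In U0126 against DMSO, 0 passed by limma, beside 0.058% of all probe sets, and 7 had an unadjusted p below 0.05, as did 13.3% of all probe sets (Dhcr7, Srebf1, Scd, Scd2, Fasn, Acaca and Me1), all higher with U0126. In U0126+TNFα against TNFα, 0 passed, beside 0.254%, and 6 had an unadjusted p below 0.05, as did 12.7% of all probe sets, of which Srebf1, Scd, Scd2, Elovl6 and Me1 were higher and Insig2 was lower. The 2 averaged calls became 0 without the replicate block. Both stood without the DMSO array of experiment 1, Me1 alone stood without the TNFα array of experiment 2, and neither stood without any 1 of the other 6 arrays.

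Me1, the cytosolic malic enzyme that makes NADPH for fatty acid synthesis, measured 3831 and 2748 in DMSO, 4601 and 4048 in U0126, 2719 and 2521 in TNFα, and 4082.5 and 3637.5 in U0126+TNFα. Each array with U0126 was above its partner, and in TNFα-treated cells the difference was 1.50-fold in experiment 1 and 1.44-fold in experiment 2. Me1 rose by 0.48 ± 0.07 (adjusted p = 0.038), and its other probe set had 0.48 (adjusted p = 0.057). TNFα alone lay at 0.710 of DMSO in experiment 1 and 0.918 in experiment 2, without passing (adjusted p = 0.11).

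Srebf1 rose with U0126 by 0.37 ± 0.06 (adjusted p = 0.046), 1.24-fold in experiment 1 and 1.36-fold in experiment 2. Its dimmer probe set had 0.50 (adjusted p = 0.094). In TNFα-treated cells the difference was 0.46 ± 0.08 (adjusted p = 0.093), and without TNFα it was 0.28 ± 0.08 (adjusted p = 0.29).

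Higher with U0126 in all 4 pairs were 10 of 37 members, 27.0%, beside 12.9% of all probe sets: Pmvk, Tm7sf2, Srebf1, Scd, Scd2, Acaca, Elovl6, Fads2, Me1 and Lpin1, so 7 of the 14 fatty acid genes. Lower in all 4 was Hsd17b7 alone, 2.70%, beside 10.5%. Scd2, a second stearoyl-CoA desaturase, had 0.25 ± 0.05 (adjusted p = 0.073), Scd 0.34 ± 0.08 (adjusted p = 0.11) and Elovl6 0.18 ± 0.05 (adjusted p = 0.17). The 4 probe sets of Scd2 spread from 0.13 to 0.70. The median of the fatty acid genes was 0.12 and that of the sterol enzymes 0.01, where all probe sets had a median of -0.0032. None of the 7 adipocyte markers passed for U0126, while 3 of 12 chondrocyte markers, Acan, Cnmd and Col9a3, rose.

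**Figure D4:**
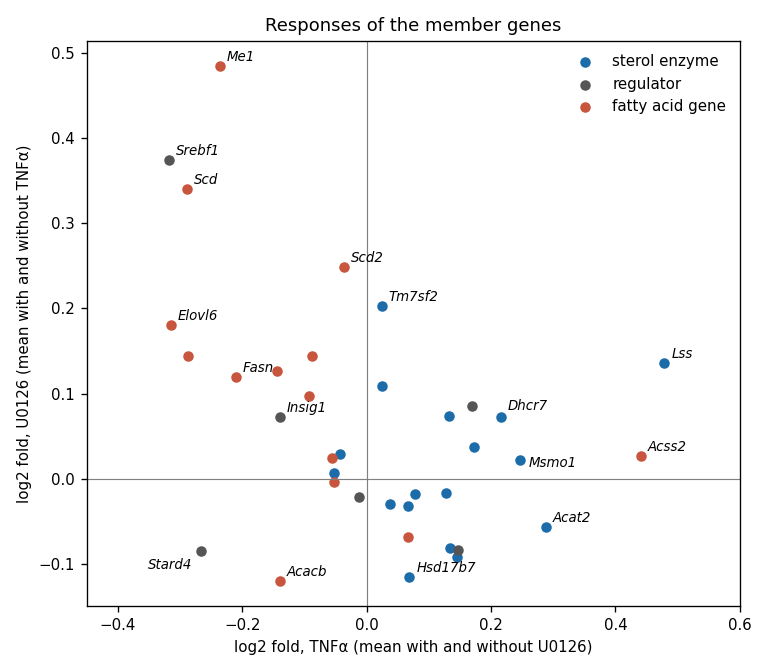
Averaged log2 effect of TNFα (horizontal) against that of U0126 (vertical) for the 37 members, with the genes the text turns on named. Srebf1, Me1, Scd and Elovl6 lie at upper left (lower with TNFα, higher with U0126), and Acat2, Lss, Msmo1 and Dhcr7 lie to the right, with U0126 effects from -0.06 (Acat2) to 0.14 (Lss).

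Whether U0126 altered the response to TNFα was tested as an interaction. It passed for 0 of 37 members by limma, beside 0% of all probe sets (0 calls in all), and 1 member, Insig2, had an unadjusted p below 0.05, as did 9.13% of all probe sets (a log2 difference of -0.31 ± 0.11, adjusted p = 0.53). Below 0 were 28 of 37 differences, with a median of -0.10. The median of all probe sets was 0.0049, and that of genes at 1 probe set each -0.0089. The members' median standard error was 0.11, so a difference of the size of most TNFα effects here was not detectable with 2 arrays a group.

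The neighbouring pathways were read from 8 lists with 138 measured genes, of which 12 rose and 14 fell in the averaged effect of TNFα, together 18.8%, beside 7.92% of all probe sets and 9.71% of genes at 1 probe set each. In TNFα against DMSO 9 rose and 6 fell, 10.9%, beside 5.19% and 6.33%. Among all probe sets 4.56% rose and 3.36% fell in the averaged effect, which stands beside each count of a list below. The lists' median averaged effects ran from -0.10 for lipid droplet genes to 0.10 for oxysterol and efflux genes, beside -0.02 for all probe sets. The largest differences were in the oxysterol and efflux list, where 3 of 17 rose and 0 fell. Cyp7b1, which hydroxylates oxysterols, rose by 1.59 in TNFα against DMSO, 3.24-fold in experiment 1 and 2.80-fold in experiment 2 (adjusted p = 0.00031). Ch25h, which makes the SREBP-blocking oxysterol 25-hydroxycholesterol, rose by 0.69, 1.61- and 1.62-fold (adjusted p = 0.0053). The mean intensities of both, 140.8 and 143.3, lay near the lower quartile. Abca1, the cholesterol exporter, rose in the averaged effect by 0.78 (adjusted p = 0.049), 2.29-fold in experiment 1 and 1.29-fold in experiment 2. With U0126, Cyp7b1 fell in TNFα-treated cells by 1.00 ± 0.07 (adjusted p = 0.011), to 0.479 of TNFα in experiment 1 and 0.521 in experiment 2. Without TNFα the difference was -0.10 ± 0.07 (adjusted p = 0.55), so the averaged fall of 0.55 (adjusted p = 0.013) stands between unlike values. The test of that difference, the interaction, gave -0.90 ± 0.10 (unadjusted p = 6.3e-05) and did not pass over all probe sets (adjusted p = 0.50). Nceh1 had 0.27 in TNFα against DMSO (adjusted p = 0.10).

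Of 14 other sterol and uptake genes, 2 rose and 1 fell. Lipa, the lysosomal lipase that frees cholesterol from its esters, rose by 0.47 in TNFα against DMSO (adjusted p = 0.029), and the sterol carrier Stard5 rose by 0.72 (adjusted p = 0.044). Scarb1, the HDL receptor, fell by 0.24 in the averaged effect (adjusted p = 0.029). Of 11 genes of SREBP processing, Syvn1 fell by 0.21 (adjusted p = 0.031) and Pgrmc1 fell by 0.22 (adjusted p = 0.037), and 0 rose. Of 11 genes of the isoprenoid branch Icmt, which methylates prenylated proteins, rose by 0.19 (adjusted p = 0.047).

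In the list of fatty acid activation and glycerolipid synthesis, 3 of 33 rose and 4 fell in the averaged effect. Fads3 rose by 0.44 (adjusted p = 0.0073), the acyl-CoA synthetase Acsl5 by 0.39 (adjusted p = 0.0069) and Mid1ip1, which activates acetyl-CoA carboxylase, by 0.31 (adjusted p = 0.021). Acsl1, Acsl3, Pemt and Acss1 fell, by 0.54, 0.27, 0.25 and 0.19, and are named after their values were seen. Mogat2 fell by 0.32 in TNFα against DMSO (adjusted p = 0.035). Mid1ip1 also rose with U0126, by 0.45 (adjusted p = 0.028), and was the only one of the 138 to rise with U0126.

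Fatty acid oxidation had 3 of 24 rising and 2 falling. Acadl, a mitochondrial acyl-CoA dehydrogenase, rose by 0.60 in TNFα against DMSO (adjusted p = 0.0092), Ppard, a fatty acid receptor, by 0.45 (adjusted p = 0.020) and Eci1 by 0.36 (adjusted p = 0.033), while the coactivator Ppargc1a fell by 0.46 (adjusted p = 0.013). Hadh, named after its values were seen, fell by 0.22 in the averaged effect. Of 20 lipid droplet genes 0 rose and 4 fell. G0s2, an inhibitor of lipolysis, fell by 0.87 in TNFα against DMSO (adjusted p = 0.0025), and the fatty acid transporter Cd36 fell by 0.76 (adjusted p = 0.017). Plin1 and Fabp4, the others, are adipocyte markers given above. Of 8 NADPH genes Me3 fell by 0.48 in TNFα against DMSO (adjusted p = 0.028). With U0126 the pentose phosphate enzymes Pgd and Tkt had 0.40 (adjusted p = 0.097) and 0.27 (adjusted p = 0.056).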

How the data were processed

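The authors deposited 1 table of linear probe set intensity values, made with RMA per the submitters' notes (version not given in the sources used here), for 8 arrays (Affymetrix RAT230_2.0) without detection calls. All 31099 probe sets were log2-transformed and each array was centred on its median (364 to 378 over the 31042 probe sets kept after removing 57 controls). Intensities in the text are after centring. Probe sets were named from the platform annotation: 20826 had 1 symbol, 436 several and 9780 none, and a gene was read from its brightest probe set with 1 symbol. limma 3.58.1 (R 4.3.3) fitted the 4 groups with the experiment as a block on all 8 arrays, tested contrasts with empirical Bayes and adjusted p by Benjamini-Hochberg, with a threshold of 0.05. The fold rule asked that each experiment pass 1.45-fold, both on the same side. Replicate numbers come from the labels, and the methods pair arrays by experiment. Deviations from the group means of arrays with the same number correlated at 0.728 to 0.829.

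Members, lists, markers, motifs and tests were chosen with earlier results of these data known. Members were given in full when they passed a test or were main regulators or rate-setting enzymes, and the others by range. Of each other list up to 4 genes with the smallest adjusted p for TNFα against DMSO and up to 2 for averaged U0126 were named, and the few beyond that are marked. Names without a probe set of their own are not analysed here. Alternatives were other scaling, no block, only the arrays compared, other probe set choices, a filter on the dimmest 40%, other empirical Bayes settings, other fold thresholds and leaving out each array. Promoter windows (250 bases before and 50 after the start) and motif counts came from RefSeq, GRCr8. Windows of Pmvk, Fdft1, Sqle, Stard4, Fasn, Acaca and Elovl6 were not analysed here. The limma script was also run on simulated data without a difference between experiments, so that run could not check the block. Tables and figures were made with Python 3.11.15 and matplotlib 3.10.9.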

Additional observations from a re-analysis of the deposited data

How the results depend on the processing

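Of 228 alternative values of the 14 named gene results, 105 kept the direction and the call, 123 kept the direction and lost the call, and 0 reversed. The replicate block decided the calls: without it, limma called 0 members for TNFα against DMSO (3 with it), 0 for the averaged TNFα effect (8), 0 for the averaged U0126 effect (2) and 0 for U0126+TNFα against DMSO (1), and over all probe sets 25, 133 and 3 calls remained for the comparisons of TNFα with DMSO, averaged TNFα and averaged U0126. Leaving out the block changed no other count of members, while calls over all probe sets fell in every comparison that had any. For TNFα against DMSO the count was 6 with any probe set of the gene, 5 with the dimmest probe set, 5 without the dimmest 40% of probe sets, 0 with only the arrays compared, and 0 to 1 when 1 array was left out. For the averaged TNFα effect it was 1 to 7 with 1 array left out. For the averaged U0126 effect it was 0 with the dimmest probe set, 1 after quantile normalization and 0 to 2 with 1 array left out. For U0126+TNFα against DMSO it was 3 with any probe set, 0 with an intensity trend, 0 without centring and 0 to 2 with 1 array left out. U0126+TNFα against U0126 gave 1 call (Elovl6) with any or the dimmest probe set, and U0126+TNFα against TNFα gave 1 (Me1) with only the arrays compared. The fold rule, 0 in each pair, gave 2 (Lss, Acss2) for TNFα against DMSO on mean folds and 0 to 2 on single experiments, and 0 to 1 for U0126 against DMSO and for U0126+TNFα against U0126 on single experiments. For U0126+TNFα against TNFα it gave 2 at 1.3-fold, 1 on mean folds and 1 on either experiment alone, and for U0126+TNFα against DMSO 1 at 1.3-fold, 1 on mean folds and 0 to 2 on single experiments. The median log2 fold over the members, 0.03 for TNFα against DMSO, was 0.12 in experiment 1 alone and -0.0056 in experiment 2. For U0126+TNFα against TNFα, -0.01, it was -0.024 without centring, 0.0037 after quantile normalization, 0.010 with the dimmest probe set and -0.0017 to -0.0072 in single experiments. For U0126+TNFα against DMSO, 0.05, it was -0.013 after quantile normalization, and for averaged U0126, 0.03, it was 0.072 with the dimmest probe set. Leaving out an array leaves 1 in its group, which is assumed to vary like the other groups. Low intensities such as that of Acacb have no detection call.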
